A study of Mus musculus with 14 samples.

Results

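The genes described here encode the precursors of 9 neuropeptides: Nts, Penk, Pdyn, Tac1, Tac2, Adcyap1, Crh, Grp and Cartpt. They were taken by gene name from both count tables of an RNA-seq study of the mouse dorsal hippocampus, and all 9 were found among the 27591 genes listed in the 2 tables together. A neuropeptide gene is translated into a precursor that is cut by convertases in dense core vesicles and released during strong neuronal firing. The peptides act mostly on G protein-coupled receptors, more slowly and over a longer range than glutamate or GABA. In the hippocampus most of these genes are used by small populations of cells, such as interneurons, dentate granule cells or projection neurons, so a bulk extract holds few of their transcripts. Several of them are textbook targets of cyclic AMP signalling, in which the factor CREB binds a promoter element called CRE and recruits the acetyltransferases CBP and p300.

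All libraries came from male C57BL6 mice aged 8 months, bred according to the methods on C57BL6/J. WT mice were compared with THY-Tau22 (TAU) mice, heterozygous for a mutated human Tau gene expressed in neurons under the Thy1.2 promoter. The basal experiment held 3 WT and 2 TAU libraries from resting mice. The learning experiment held 9 libraries. WT mice given saline stayed in their home cage (WT VEH_HC, 3 libraries) or were trained in a spatial memory task, the Morris water maze (WT VEH, 2 libraries). Trained THY-Tau22 mice received either empty carbon nanospheres, CSP (TAU VEH, 2 libraries), or nanospheres carrying TTK21, an activator of CBP and p300 (CSP-TTK21, TAU MOL, 2 libraries). TAU VEH and WT VEH therefore differ in genotype and in vehicle, and the contributions of these factors cannot be told apart. The TAU MOL mice carried the transgene and were trained, as were the TAU VEH mice.

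Library totals ran from 24693713 to 52180305 counts. Thy1, the gene whose promoter drives the transgene, was higher in the TAU libraries of all 3 comparisons with WT (log2 fold change 1.33 basal, 1.21 for TAU VEH and 1.32 for TAU MOL). Markers of tissue next to the hippocampus differed between libraries. The 14 choroid plexus markers, led by transthyretin (Ttr), summed to 160 to 417 CPM (TMM-scaled counts per 1000000) in WT VEH_HC, 2195 to 3169 CPM in WT VEH, 462 to 541 CPM in TAU VEH and 1073 to 1184 CPM in TAU MOL. In the basal experiment they summed to 595 to 714 CPM in WT and to 702 and 1989 CPM in TAU. The 6 medial habenula markers found summed to 24.9 CPM in WT basal replicate 3 and to 2.80 to 5.54 CPM in every other library of both experiments. No marker of these 2 lists was at 0 in any library. Markers of the hippocampus itself, of dentate granule cells and CA1 pyramidal cells, summed to at least 348 and 363 CPM in each library, and the 7 GABAergic interneuron markers found summed to at least 999.7 CPM.

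The sequences of interest are those upstream of the transcription start, because a CBP and p300 activator was tested and these acetyltransferases are recruited by CREB. RefSeq promoters (build GRCm38.p6) were at hand for 6 of the 9 genes: Nts, Pdyn, Tac1, Tac2, Adcyap1 and Cartpt. The 250 bases before each start were searched on both strands for the full CRE (TGACGTCA), for its short form (TGACG) and for the AP-1 site (TGANTCA), which Fos and Jun proteins bind. A full CRE contains the short CRE on both strands. Of 32851 RefSeq promoters, 1.55% held the full CRE, 17.8% the short CRE and 6.75% the AP-1 letters. The Nts window is shown first because Nts carries the largest difference of the 9 genes below, in TAU MOL vs TAU VEH. Its capitals mark an AP-1 match 200 bases before the start and a short CRE 161 bases before it. The other lines show matches with 20 flanking bases on each side, the match in capitals, in the direction of transcription.
Nts, chr10:102490419-102490668, minus strand: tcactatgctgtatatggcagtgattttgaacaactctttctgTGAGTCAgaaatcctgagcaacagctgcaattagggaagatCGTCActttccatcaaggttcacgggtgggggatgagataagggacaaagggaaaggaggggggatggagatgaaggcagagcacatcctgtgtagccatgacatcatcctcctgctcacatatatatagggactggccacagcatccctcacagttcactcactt
Cartpt, chr13:99900768-99900815, minus strand: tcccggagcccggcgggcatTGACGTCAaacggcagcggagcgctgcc
Tac1, chr6:7554844-7554888, plus strand: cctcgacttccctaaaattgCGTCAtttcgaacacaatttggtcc
Tac1, chr6:7554998-7555042, plus strand: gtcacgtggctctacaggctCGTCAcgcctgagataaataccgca
Adcyap1, chr17:93198906-93198950, plus strand: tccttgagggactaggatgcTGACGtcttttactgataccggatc

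Cartpt was the only one of the 6 with a full CRE in this window, 104 bases before its start. Tac1 held the short CRE at 192 and 38 bases before its start. Adcyap1 held it 86 bases before the first of its 2 listed starts. None of these letters was present in the windows of Tac2 or of the 2 listed starts of Pdyn. A match describes the letters in the window and not a bound site. Variants of these letters were not searched for, so an unmarked window can still hold a near match.

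The 9 genes covered a wide range of levels. Per length of exon, in RPKM (TMM-scaled CPM per kilobase of exon), Penk stood far above the rest, with 27.2 ± 4.77 (SD, n = 9 learning libraries). Pdyn followed at 5.41 ± 0.689, Tac2 at 4.71 ± 2.67, Tac1 at 4.54 ± 1.01 and Grp at 4.52 ± 0.887 RPKM, and neighbours among these 4 differed by less than the larger of their SDs. Nts had 1.72 ± 0.699, Cartpt 1.14 ± 0.260, Adcyap1 1.01 ± 0.150 and Crh 0.875 ± 0.178 RPKM, where neighbours again differed by less than the larger of their SDs, although Nts lay above Cartpt by more than the SD of Cartpt. In the basal libraries the order was Penk, Pdyn, Tac1, Tac2, Grp, Nts, Adcyap1, Cartpt and Crh, from 27.5 to 1.27 RPKM (n = 5). In the learning libraries raw counts fell to 21 for Cartpt, 24 for Crh and 34 for Nts, so that these genes carry counting error beside the spread between libraries. The 34 Nts counts of TAU VEH replicate 2 have an exact 95% Poisson interval of 23.6 to 47.5 counts, which covers counting error only.

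**Figure D1:**
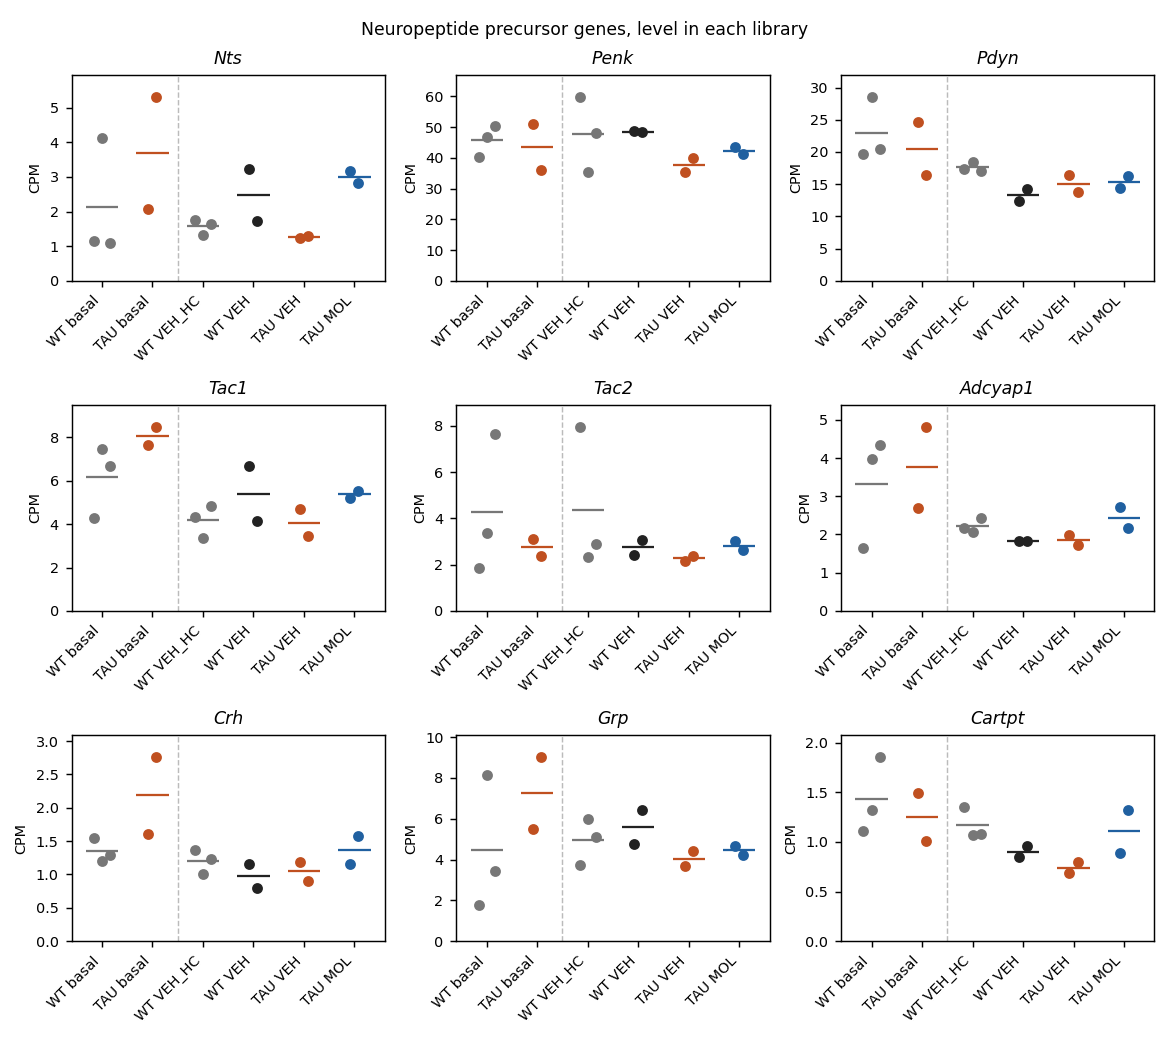
Level of each of the 9 genes in CPM (TMM-scaled, linear axis from 0) in every library, by group, with 1 point per library and a line at the group mean; the dashed line parts the basal from the learning experiment, which were scaled separately. The 2 TAU MOL libraries sit above both TAU VEH libraries for Nts (3.18 and 2.82 against 1.22 and 1.28 CPM), and single libraries stand high for Tac2 in WT basal and in WT VEH_HC.

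Nts (ENSMUSG00000019890, chr10:101944394-101953052 in mm9, minus strand) encodes neurotensin and neuromedin N. In the home cage WT VEH_HC libraries its level was 1.76, 1.31 and 1.65 CPM. Trained WT VEH libraries had 3.22 and 1.72 CPM, TAU VEH libraries 1.22 and 1.28 CPM, and TAU MOL libraries 3.18 and 2.82 CPM. The 2 TAU VEH libraries were thus the lowest of the learning experiment, the 2 TAU MOL libraries and WT VEH replicate 1 the highest, and WT VEH replicate 2 overlapped with the home cage. In the basal experiment the WT libraries had 1.14, 4.14 and 1.10 CPM and the TAU libraries 2.08 and 5.32 CPM, so that both genotypes held a library with a low and one with a high level.

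Comparing TAU VEH with WT VEH, Nts had a log2 fold change of -0.99 (SE 0.29, 95% interval -1.61 to -0.36) and an adjusted p of 0.0398 (edgeR quasi-likelihood F test, Benjamini-Hochberg over 16820 genes). DESeq2 gave an adjusted p of 0.0306. It was the 1 member of the 9 called in this comparison, against 14.4% of all genes tested (2423, of which 608 higher and 1815 lower), so that the share of the 9 was near the background. A call requires an adjusted p below 0.05 together with a log2 fold change beyond 0.2 in either direction. With library size as the only scaling the median over all genes was 0.15 instead of 0.00, and 28.4% of the called genes were lower instead of 74.9%, while Nts differed by -0.84. In a bulk extract, fewer cells using a gene and less RNA per cell cannot be told apart. The call rested on WT VEH replicate 1: without it the log2 fold change was -0.45, with an adjusted p of 0.381. It was also lost without TAU VEH replicate 1 (adjusted p = 0.225) or 2 (0.123), without TAU MOL replicate 1 (0.0581) or 2 (0.0572), without WT VEH_HC replicate 3 (0.05), with GC and length correction (0.0883) and with library size as the only scaling (0.0582). In these refits other than the one without WT VEH replicate 1, the log2 fold change lay between -1.04 and -0.84.

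Markers of other tissues and cells differed between the same groups as Nts. In TAU VEH vs WT VEH all 14 choroid plexus markers tested were called lower. The 4 CA1 pyramidal cell markers summed to 675 to 749 CPM in WT VEH, 408 to 428 CPM in TAU VEH and 575 to 608 CPM in TAU MOL, and 2 of the 4, Wfs1 and Fibcd1, were called lower. The 6 neocortex markers found summed to 98.8 to 101 CPM in WT VEH, 74.4 to 78.0 CPM in TAU VEH and 85.0 to 96.6 CPM in TAU MOL. In TAU VEH vs WT VEH 3 of these 6, and 2 of the 6 striatum markers tested, were called lower. The striatum markers found summed to 139 to 155 CPM in WT VEH, 87.5 to 91.2 CPM in TAU VEH and 98.8 to 111 CPM in TAU MOL, with at most 1 of the 7 at 0 in a library. The 4 subiculum markers, none of them at 0, summed to 59.7 to 69.4 CPM in WT VEH, 48.5 to 50.0 CPM in TAU VEH, 55.8 to 60.9 CPM in TAU MOL and 54.9 to 105 CPM in WT VEH_HC. In each of TAU VEH vs WT VEH and TAU MOL vs TAU VEH, edgeR and DESeq2 called 0 of the 4, with 1 at an unadjusted p under 0.05. The share of all genes under that limit was 27.1% and 6.33%. The 7 GABAergic interneuron markers, none at 0, summed to 1116 to 1158 CPM in WT VEH, 1048 to 1079 CPM in TAU VEH and 1103 to 1238 CPM in TAU MOL, and 1 of the 7, the vesicular GABA transporter Slc32a1, was called lower in TAU VEH vs WT VEH. In the CA1, neocortex, striatum, subiculum and interneuron sums both TAU VEH libraries were thus below every library of the other trained groups, as they were for Nts. Other lists did not follow this. Dentate granule cell markers summed to 384 to 427 CPM in TAU VEH and 371 to 393 CPM in WT VEH. Ventral hippocampus markers had 32.5 to 33.25 CPM against 29.5 to 32.9 CPM, and mossy cell markers 21.2 to 23.2 CPM against 17.0 to 20.05 CPM. When the mean log2 level of the 14 choroid plexus genes per library entered the fit as a covariate, an addition made after seeing the data, the Nts difference was -0.10 (adjusted p = 0.957) and edgeR called 0 of 16820 genes in this comparison. The groups took up 92.3% of the variance of that covariate among the 9 learning libraries, so that genotype and choroid plexus content cannot be told apart here. The 7 thalamus markers, none of them at 0, summed to 80.4 and 65.7 CPM in WT VEH, 71.9 to 79.2 CPM in WT VEH_HC, 68.8 to 70.3 CPM in TAU VEH and 83.5 and 70.3 CPM in TAU MOL, so that these sums overlapped between groups, and 1 of the 7, Lef1, was called lower in TAU VEH vs WT VEH. Within these lists, 2 genes picked after their values were seen varied in the learning libraries much as Nts did. Slc17a6, a vesicular glutamate transporter of the thalamus list, had 9.31 and 5.32 CPM in WT VEH, 4.20, 5.30 and 5.55 CPM in WT VEH_HC, 5.23 and 5.06 CPM in TAU VEH and 12.7 and 9.50 CPM in TAU MOL, so that WT VEH replicate 1, on which the Nts call rested, was also the higher of its group here. Tshz2, of the neocortex list, had 6.96 and 6.01 CPM in WT VEH, 3.43, 5.80 and 4.53 CPM in WT VEH_HC, 3.48 and 3.06 CPM in TAU VEH and 9.17 and 6.56 CPM in TAU MOL, and was called lower in TAU VEH vs WT VEH (-0.98, adjusted p = 0.0167). The lists of Slc17a6 and Tshz2 were divided. In TAU VEH, Rorb (neocortex) had 13.7 to 14.3 CPM, above the 11.1 to 12.5 CPM of WT VEH. Synpo2 (thalamus) had 6.14 to 7.06 CPM in TAU VEH, above 5.01 to 5.58 CPM in WT VEH. Tcf7l2 and Rgs16 (thalamus) had lower means in TAU MOL than in TAU VEH, with overlapping libraries. Cux2 and Fezf2 (neocortex) were, like Nts, lowest in TAU VEH among the trained groups. The part of the CA1, neocortex, striatum, subiculum, interneuron and thalamus markers in the Nts differences was not tested.

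CSP-TTK21 treatment was compared with its vehicle in trained THY-Tau22 mice. Nts was higher in both TAU MOL than in both TAU VEH libraries, by 1.26 on the log2 scale (SE 0.28, 95% interval 0.65 to 1.88). Its unadjusted p was 0.000832, the 54th lowest of 16820 genes, and its adjusted p was 0.254 in edgeR and 0.0664 in DESeq2, so it did not pass the test. The log2 fold change stayed between 1.17 and 1.35 with DESeq2, other scaling, no filter, a replicate block, GC and length correction or any library left out, and was 0.83 with the choroid plexus covariate, while the adjusted p ran from 9.86e-05 without a filter on low counts to 1. In this comparison edgeR called 0 genes (0% of 16820), with 1064 at an unadjusted p under 0.05, and DESeq2 called 54. Slc17a6 and Tshz2 were among these 54, with log2 fold changes of 1.11 and 1.26 and DESeq2 adjusted p-values of 0.00326 and 0.00063 (0.254 and 0.213 in edgeR), each the 1 gene of its list that DESeq2 called. At an unadjusted p under 0.05 edgeR had 1 of the 7 thalamus and 3 of the 6 neocortex markers, beside 6.33% of all genes. The comparison shares its TAU VEH libraries with the one against WT VEH. TAU MOL and WT VEH differed in Nts by 0.28 (SE 0.26, 95% interval -0.29 to 0.85, adjusted p = 0.633), a difference that turned to -0.10 without WT VEH replicate 2.

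**Figure D2:**
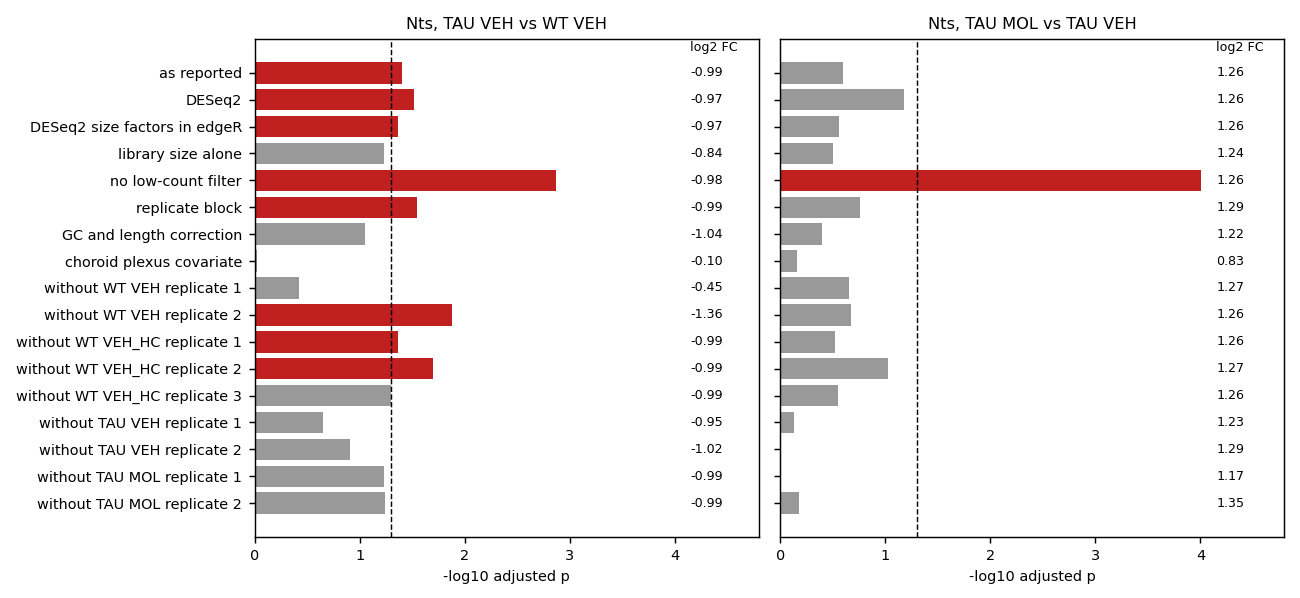
Minus log10 of the adjusted p of Nts (bars, from 0) under each way of fitting, with TAU VEH vs WT VEH in the left and TAU MOL vs TAU VEH in the right panel, with the log2 fold change printed at the right of each bar; red bars pass an adjusted p of 0.05, marked by the dashed line. The right panel has a log2 fold change of 1.26 as reported and passes only without the filter on low counts, whereas the left panel drops to -0.45 without WT VEH replicate 1.

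The training difference of Nts in WT mice (WT VEH vs WT VEH_HC) was 0.66 (SE 0.25, 95% interval 0.12 to 1.20, adjusted p = 0.11), with WT VEH replicate 2 inside the home cage range. It was 0.14 without WT VEH replicate 1 and 1.04 without WT VEH replicate 2. Without the filter on low counts the adjusted p was 0.0248, and with the choroid plexus covariate the value was -0.60 (adjusted p = 0.965). In basal mice the difference was 0.79 (SE 0.56, 95% interval -0.44 to 2.03, adjusted p = 0.901), and the libraries overlapped. It turned to -0.033 without TAU basal replicate 2 and was 1.74 without WT basal replicate 2.

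Pdyn (ENSMUSG00000027400, chr2:129512301-129525580, minus strand) encodes prodynorphin, the source of the dynorphins, which act on the kappa opioid receptor and which dentate granule cells store in mossy fibres. Home cage libraries had 17.4, 18.5 and 17.1 CPM and trained WT VEH libraries 12.4 and 14.3 CPM, without overlap. TAU VEH libraries had 16.4 and 13.8 CPM and TAU MOL libraries 14.4 and 16.3 CPM, between these groups or overlapping with WT VEH. Pdyn fell by 0.41 on the log2 scale with training in WT mice (log2 fold change -0.41, SE 0.10, 95% interval -0.63 to -0.18), with an adjusted p of 0.0377 in edgeR and 0.0162 in DESeq2.

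Pdyn was the 1 member of the 9 called with training, against 8.4% of all genes tested (1413, of which 900 higher and 513 lower), again a share near the background. The fall kept its direction under the same settings (-0.51 to -0.31), but the call was lost without WT VEH replicate 1 (adjusted p = 0.309) or 2 (0.0756), without WT VEH_HC replicate 1 (0.072) or 2 (0.0591), without either TAU MOL library (0.0517 and 0.0519) and with GC and length correction (0.0538). All 14 choroid plexus markers rose with training, and with their level as covariate Pdyn differed by 0.06 (adjusted p = 0.995), a fit in which 0 genes were called. The dentate granule cell markers summed to 371 to 393 CPM in WT VEH and 422 to 585 CPM in WT VEH_HC, and C1ql2, the 1 of the 5 called lower, had 141 ± 19.0 (SD, n = 2) against 239 ± 51.4 CPM (SD, n = 3), whereas Dsp had 70.6 ± 3.98 against 69.5 ± 12.4 CPM. The 3 mossy cell markers summed to 17.0 to 20.1 CPM in WT VEH and 23.1 to 35.2 CPM in WT VEH_HC. Neither edgeR nor DESeq2 called any of them, and 3 were at an unadjusted p under 0.05, as were 27.8% of all genes tested. The part of these markers in the fall was not tested. In trained mice Pdyn differed by 0.19 between TAU VEH and WT VEH (95% interval -0.06 to 0.44, adjusted p = 0.329), by 0.01 in TAU MOL vs TAU VEH (-0.23 to 0.26, adjusted p = 1) and by 0.20 in TAU MOL vs WT VEH (-0.05 to 0.45, adjusted p = 0.369). With a library left out, the first of these ran from 0.049 (without TAU VEH replicate 1) to 0.30 (without TAU VEH replicate 2) and the last from 0.11 (without TAU MOL replicate 2) to 0.30 (without WT VEH replicate 2). Basal WT libraries had 19.7, 28.6 and 20.4 CPM and TAU libraries 24.6 and 16.4 CPM, which overlapped.

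Penk (ENSMUSG00000045573, chr4:4060678-4065966, minus strand) encodes proenkephalin, from which the enkephalins are cut, ligands of the delta and mu opioid receptors. Its exons share 233 bases with the antisense gene A830012C17Rik, and since the library kit keeps no strand, reads from that stretch cannot be told apart; the antisense gene had 0 to 7 counts. Home cage libraries had 59.9, 35.3 and 48.1 CPM, the widest spread of the learning groups, while WT VEH libraries had 48.7 and 48.5 CPM. TAU VEH libraries had 35.4 and 40.0 CPM and TAU MOL libraries 43.4 and 41.2 CPM. Both TAU VEH libraries were thus below both WT VEH and both TAU MOL libraries. The difference between TAU VEH and WT VEH was -0.37 (SE 0.18, 95% interval -0.76 to 0.02, adjusted p = 0.208) and did not pass the test. It passed without the filter on low counts (adjusted p = 0.00144) and without WT VEH_HC replicate 2 (0.0186). It was smaller with library size as the only scaling (-0.22, adjusted p = 0.417) and with the choroid plexus covariate (-0.14, adjusted p = 0.905). The difference was 0.03 with training (adjusted p = 0.934) and 0.17 for TAU MOL vs TAU VEH (adjusted p = 0.963), the latter 0.082 without TAU VEH replicate 1 and 0.26 without TAU VEH replicate 2. Basal levels overlapped, with 40.4, 46.9 and 50.5 CPM in WT and 51.0 and 36.0 CPM in TAU.

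The 2 tachykinin precursors differed in how their libraries spread. Tac1 (ENSMUSG00000061762, chr6:7505071-7512973, plus strand) encodes substance P and neurokinin A. It had 4.32, 3.38 and 4.86 CPM in WT VEH_HC, 6.67 and 4.13 CPM in WT VEH, 4.72 and 3.43 CPM in TAU VEH and 5.21 and 5.54 CPM in TAU MOL. Both TAU MOL libraries stood above both TAU VEH libraries, and WT VEH overlapped with both groups. The difference was 0.37 with training (adjusted p = 0.279), -0.39 for TAU VEH vs WT VEH (adjusted p = 0.342) and 0.37 for TAU MOL vs TAU VEH (adjusted p = 0.884). The last was 0.19 without TAU VEH replicate 2 and 0.65 without TAU VEH replicate 1. In basal mice both TAU libraries (7.63 and 8.49 CPM) were above the WT libraries (4.30, 7.47 and 6.69 CPM), by 0.39 on the log2 scale (SE 0.22, adjusted p = 0.901), a difference of 0.20 without WT basal replicate 1 and 0.57 without WT basal replicate 2.

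Tac2 (ENSMUSG00000025400, chr10:127162448-127168823, plus strand) encodes neurokinin B and is a known marker of the medial habenula, which borders the hippocampus. In basal WT libraries it had 1.84, 3.36 and 7.64 CPM, and in TAU libraries 3.13 and 2.39 CPM. The high library, WT basal replicate 3, was also the one with the high habenula marker sum. This library also had the highest basal sums of the thalamus markers (175 against 74.4 to 149 CPM) and of the mossy cell markers (117 against 13.2 to 52.5 CPM). Without it the basal difference turned from -0.62 (SE 0.48, adjusted p = 0.905) to 0.09. In the learning experiment WT VEH_HC had 7.96, 2.32 and 2.88 CPM, and its high library, replicate 1, had an ordinary habenula sum of 4.78 CPM. WT VEH had 2.44 and 3.07 CPM, TAU VEH 2.17 and 2.38 CPM and TAU MOL 3.01 and 2.62 CPM, near the other 2 home cage libraries. The training difference of -0.65 (SE 0.42, adjusted p = 0.334) turned to 0.08 without WT VEH_HC replicate 1, and no test called Tac2 with the filter on low counts in place.

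**Figure D3:**
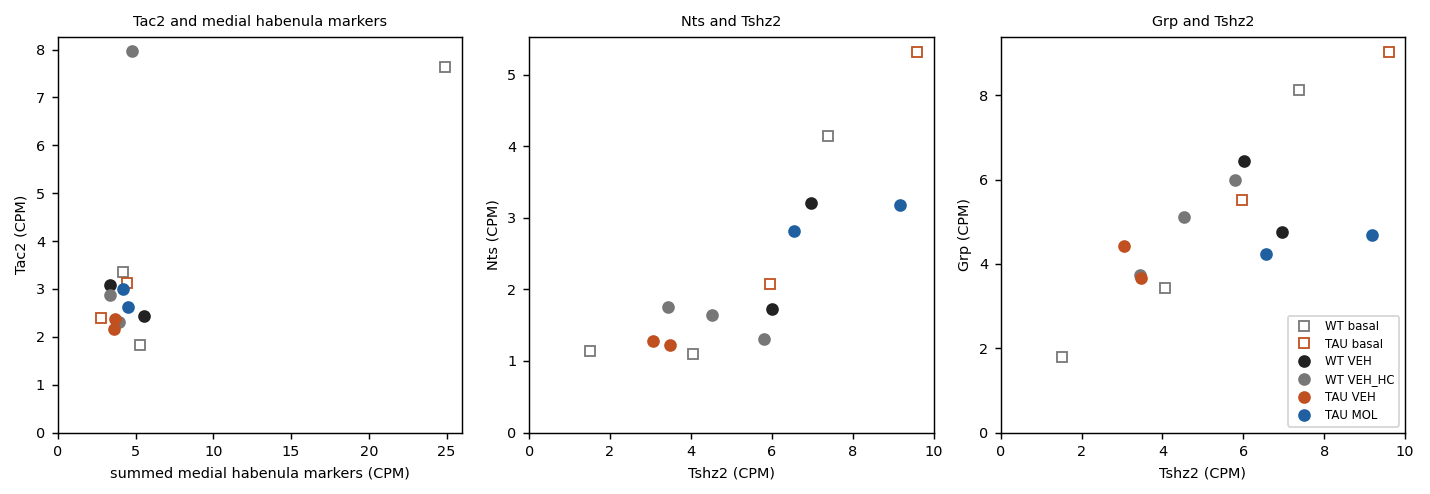
Each point is 1 library of the group given in the legend, in CPM on linear axes: Tac2 against the summed medial habenula markers (left), and Nts and Grp against Tshz2, a gene of the neocortex list picked after its values were seen and followed by only part of that list (middle and right). WT basal replicate 3 stands alone at a habenula sum of 24.9 CPM, and WT VEH_HC replicate 1 reaches 7.96 CPM of Tac2 with a sum of 4.78 CPM. The libraries highest in Tshz2 include the highest in Nts and Grp (TAU basal replicate 2, 5.32 and 9.02 CPM). Among the learning libraries the highest Tshz2 (9.17 CPM, TAU MOL) came with 4.67 CPM of Grp. The highest Grp there (6.44 CPM, WT VEH) came with 6.01 CPM of Tshz2.

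Grp (ENSMUSG00000024517, chr18:66032474-66046232, plus strand) encodes gastrin-releasing peptide, a bombesin-like peptide made by glutamatergic neurons. The basal WT libraries had 1.78, 8.13 and 3.43 CPM and the TAU libraries 5.52 and 9.02 CPM. WT replicate 2 and TAU replicate 2 were the highest, as they were for Nts. Over the 5 basal libraries the log2 levels of Nts and Grp had a Pearson r of 0.92, a description only. Over the 9 learning libraries this r was -0.033. The basal libraries also differed in Tshz2 (7.38 and 9.60 CPM in WT replicate 2 and TAU replicate 2, and 1.51 to 5.96 CPM in the others). Tshz2 was picked after its values were seen, and the neocortex list was divided: Fezf2 and Rorb were also highest in the same 2 libraries, but Foxp2 was lowest in them, Cux2 had 20.3 and 20.5 CPM against 21.3 to 25.7 CPM in the others, Scnn1a had 18.0 and 8.45 CPM, and the whole list summed to 92.8 and 76.1 CPM against 64.3 to 78.9 CPM. In the learning experiment Grp had 3.74, 5.98 and 5.12 CPM in WT VEH_HC, 4.76 and 6.44 CPM in WT VEH, 3.67 and 4.42 CPM in TAU VEH and 4.67 and 4.24 CPM in TAU MOL. Both TAU VEH and both TAU MOL libraries were below both WT VEH libraries. The difference was -0.48 for TAU VEH (SE 0.22, 95% interval -0.96 to 0.00, adjusted p = 0.185) and -0.33 for TAU MOL (SE 0.22, adjusted p = 0.46), neither past the test. These values moved with the WT VEH library left out: without replicate 2 they were -0.25 and -0.095, and without replicate 1 they were -0.68 and -0.52. For TAU basal it was 0.71 (SE 0.48, adjusted p = 0.901), of opposite sign, and lay between 0.31 without TAU basal replicate 2 and 1.51 without WT basal replicate 2.

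Adcyap1 (ENSMUSG00000024256, chr17:93598762-93604825, plus strand) encodes PACAP, which raises cyclic AMP through its receptor Adcyap1r1. Learning libraries had 2.16, 2.07 and 2.43 CPM in WT VEH_HC, 1.84 and 1.83 CPM in WT VEH, 1.99 and 1.74 CPM in TAU VEH and 2.72 and 2.17 CPM in TAU MOL. Both TAU MOL libraries were above all 4 libraries of the other trained groups. The difference was 0.38 against TAU VEH (SE 0.19, 95% interval -0.05 to 0.80, adjusted p = 0.836) and 0.42 against WT VEH (SE 0.19, 95% interval -0.01 to 0.84, adjusted p = 0.261). Without TAU MOL replicate 1 these differences were 0.21 and 0.24, and without TAU MOL replicate 2 they were 0.53 and 0.57. Both trained WT libraries were below the home cage libraries, by 0.28 on the log2 scale (log2 fold change -0.28, adjusted p = 0.334). Basal levels overlapped, with 1.65, 3.97 and 4.34 CPM in WT and 2.70 and 4.82 CPM in TAU.

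Crh (ENSMUSG00000049796, chr3:19593401-19595396, minus strand) encodes corticotropin-releasing hormone, the stress peptide that some hippocampal interneurons make. In basal mice both TAU libraries (1.61 and 2.76 CPM, from 52 and 82 counts) were above the WT libraries (1.54, 1.21 and 1.29 CPM, from 41 to 57 counts). The difference was 0.69 (SE 0.29, 95% interval 0.05 to 1.34, unadjusted p = 0.0378, adjusted p = 0.901), and it fell to 0.26 without TAU basal replicate 2. In the learning experiment Crh had 1.37, 1.01 and 1.24 CPM in WT VEH_HC, 1.16 and 0.795 CPM in WT VEH, 1.19 and 0.906 CPM in TAU VEH and 1.16 and 1.57 CPM in TAU MOL. All 4 groups overlapped with at least 1 other, and no difference passed the test.

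Cartpt (ENSMUSG00000021647, chr13:100668439-100670638, minus strand) encodes CART, a peptide linked to feeding and stress, and was the gene with the full CRE. Learning libraries had 1.35, 1.07 and 1.08 CPM in WT VEH_HC, 0.846 and 0.954 CPM in WT VEH, 0.691 and 0.793 CPM in TAU VEH and 0.890 and 1.32 CPM in TAU MOL. The 2 TAU VEH libraries were the lowest of the 9. TAU MOL was above TAU VEH by 0.58 (SE 0.29, 95% interval -0.04 to 1.21, adjusted p = 0.822), WT VEH below WT VEH_HC (log2 fold change -0.37, SE 0.25, adjusted p = 0.366), and TAU VEH below WT VEH (-0.29, SE 0.30, adjusted p = 0.593). None passed the test, and counts were between 21 and 53. The difference of TAU MOL from TAU VEH was 0.28 without TAU MOL replicate 2 and 0.85 without TAU MOL replicate 1, and that of TAU VEH from WT VEH ran from -0.38 without TAU VEH replicate 2 to -0.18 without TAU VEH replicate 1. Basal levels of 1.11, 1.32 and 1.85 CPM in WT and 1.49 and 1.01 CPM in TAU overlapped.

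Taking the 9 genes by comparison, all 9 passed the filter on low counts in both experiments. In basal mice edgeR called 0 of the 9 in TAU vs WT, against 0.0245% of all genes tested (4 of 16324). Crh was the 1 member at an unadjusted p under 0.05, DESeq2 called 0, and the median log2 fold change was 0.18 for the 9 and -0.01 for all genes. With training the median was -0.28 for the 9 and 0.00 for all genes. For TAU VEH vs WT VEH it was -0.29 against 0.00, with 6 of the 9 below 0. For TAU MOL vs TAU VEH 9 of the 9 were above 0, with a median of 0.35, beside 52.8% of all genes above 0 and a median of 0.01. The adjusted p of the 9 in that comparison lay between 0.254 (Nts) and 1 (Pdyn), edgeR and DESeq2 both called 0 of the 9, and Nts was the 1 member at an unadjusted p under 0.05. For TAU MOL vs WT VEH edgeR and DESeq2 called 0 of the 9, against 5.63% of all genes by edgeR (947), with 0 of the 9 at an unadjusted p under 0.05 and a median of 0.20 beside 0.00 for all genes. DESeq2 gave no adjusted p for 7 of the 9 there. The share of all genes at an unadjusted p under 0.05 was 4.92% in basal mice, 6.33% in TAU MOL vs TAU VEH and 19.8% in TAU MOL vs WT VEH.

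**Figure D4:**
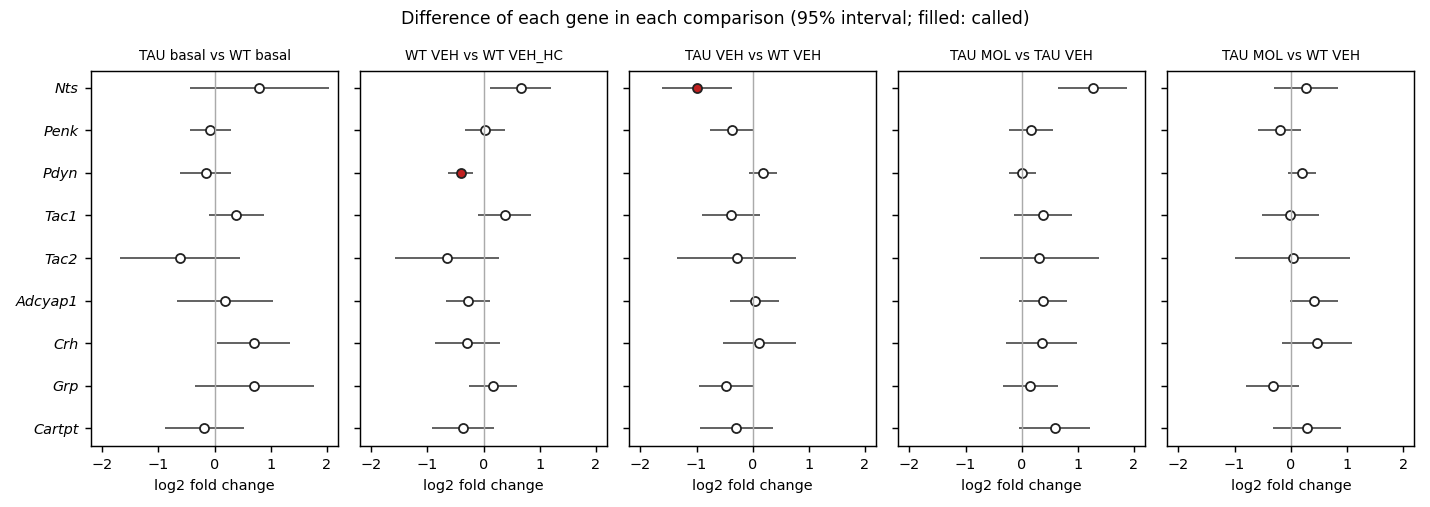
Log2 fold change of each of the 9 genes (points) with its 95% interval (lines) in the 5 comparisons, the first group named minus the second; filled points were called. The 2 filled points are Pdyn with training (-0.41) and Nts in TAU VEH vs WT VEH (-0.99), and in TAU MOL vs TAU VEH the 9 points lie at or above 0, from 0.01 for Pdyn to 1.26 for Nts.

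The receptors of these peptides were measured beside them. Of 15 receptor and binding protein genes tested, 1 was called higher and 1 lower with training, beside 8.4% of all genes called: Crhr2, a receptor of the CRH family (0.72, adjusted p = 0.027), and Sort1, the sorting receptor that also binds neurotensin (-0.25, adjusted p = 0.0406). In TAU VEH vs WT VEH, where 14.4% of all genes were called, 0 of the 15 were higher and 3 lower: Crhr2 (-1.27, adjusted p = 0.00178), Crhr1, the main receptor of CRH in brain (-0.55, adjusted p = 0.00395), and the neurotensin receptor Ntsr2 (-0.30, adjusted p = 0.0122), which is named although the rule took 2 genes, after its value was seen. Crhr2 is also expressed in choroid plexus, whose 14 markers moved in the same direction in both comparisons. The median over the 15 genes was -0.15 with training and -0.09 in TAU VEH vs WT VEH, beside 0.00 for all genes in both. In basal mice, in TAU MOL vs TAU VEH and in TAU MOL vs WT VEH edgeR called 0 of the 15, and DESeq2 called 0 in each. At an unadjusted p under 0.05 were 2, 4 and 5 of the 15, beside 4.92%, 6.33% and 19.8% of all genes tested.

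Of 14 genes of precursor processing and dense core vesicles, 1 rose and 3 fell in TAU VEH vs WT VEH, beside 14.4% of all genes called, most of them lower. Pcsk1n, which encodes proSAAS, an inhibitor of the convertase PC1/3, fell by 0.62 on the log2 scale (adjusted p = 0.00201), and the convertase gene Furin fell by 0.51 on that scale (adjusted p = 0.00178). Cadps, which primes dense core vesicles for release, rose by 0.37 (adjusted p = 0.00511). In TAU MOL vs WT VEH 2 of the 14 fell, beside 5.63% of all genes, Pcsk1n (-0.43, adjusted p = 0.028) and Furin (-0.43, adjusted p = 0.0118). With training, in basal mice and in TAU MOL vs TAU VEH edgeR called 0 of the 14, while DESeq2 called 1, 0 and 1. At an unadjusted p under 0.05 were 4, 0 and 4 of the 14, beside 27.8%, 4.92% and 6.33% of all genes tested.

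Of 8 peptide degrading enzymes, 1 rose and 2 fell with training, beside 8.4% of all genes called: the angiotensin-converting enzyme Ace rose by 1.88 (adjusted p = 0.000157), and the endopeptidases Ece2 (-0.39, adjusted p = 0.0225) and Thop1 (-0.26, adjusted p = 0.0491) fell. Thop1 and Ece2 both cut neuropeptides, Thop1 neurotensin among them. Ace was also called in TAU VEH vs WT VEH (-1.95, adjusted p = 0.000957) and in TAU MOL vs WT VEH (-0.90, adjusted p = 0.0191). Like Crhr2 it is expressed in choroid plexus. Its basal level was 15.7, 15.0 and 14.6 CPM in WT and 24.7 and 31.55 CPM in TAU. The choroid plexus markers of these 2 TAU libraries summed to 702 and 1989 CPM, against 595 to 714 CPM in basal WT. The part of choroid plexus in the Ace differences was not tested. In TAU MOL vs TAU VEH edgeR called 0 of the 8, with 1 at an unadjusted p under 0.05, and DESeq2 called 1: Ace, with a mean of 36.0 CPM in TAU MOL and 17.7 CPM in TAU VEH (log2 fold change 1.04, adjusted p = 0.213 in edgeR and 0.0463 in DESeq2). Of 8 other hippocampal neuropeptide precursors, Vip, the vasoactive intestinal peptide of interneurons, rose with training (0.59, adjusted p = 0.0251), and Cck, cholecystokinin, fell in TAU VEH vs WT VEH (-0.39, adjusted p = 0.0179) and in TAU MOL vs WT VEH (-0.39, adjusted p = 0.0377). The median of these 8 was -0.29 in TAU VEH vs WT VEH and 0.25 in TAU MOL vs TAU VEH, and 0 of the 8 were called by edgeR or DESeq2 in the latter, with 3 at an unadjusted p under 0.05. In basal mice edgeR called 0 of the degrading enzymes and 0 of the other precursors, with 1 and 2 at an unadjusted p under 0.05, and DESeq2 called 1 and 0. The share of all genes under that unadjusted limit was 4.92% in basal mice and 6.33% in TAU MOL vs TAU VEH.

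Of 13809 genes averaging 1 CPM or more, those whose log2 level followed Nts most closely over the 9 learning libraries were Pou3f3 (Pearson r 0.96), Mrpl34 (0.94), Bcl2l11 (0.92), Pgr (0.90) and Bhlhe41 (0.89). These points share libraries and groups. Over the 5 basal libraries the same genes had r of -0.13, -0.46, -0.57, 0.31 and 0.30 with Nts, so none of them followed Nts as closely there.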

How the data were processed

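Poly-A RNA-seq of the dorsal hippocampus was analysed in 14 libraries, grouped by their labels. The authors aligned single-end reads to mm9 (TopHat2 2.0.10, Bowtie2 2.1.0) and counted uniquely aligned reads on Ensembl genes (HTSeq 0.5.4p3). The deposited raw counts were used for all tests. The deposited normalized signal, counts divided by 1 factor per library, was only checked. The authors left out libraries of the learning experiment after seeing their global profiles, and those were not analysed here. Fold change and p-value columns of the authors' own comparisons were not used. Lines without values (138, learning table) were left out.

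Each table was fitted alone: edgeR 4.0.16 (R 4.3.3), quasi-likelihood F test, TMM, filterByExpr, Benjamini-Hochberg adjustment over all genes tested. The common coefficient of variation was 0.129 (basal) and 0.0840 (learning). Scripts were checked on simulated counts. CPM are TMM-scaled, and 1 count was added before taking log2. RPKM used GENCODE exon lengths (mm9). The labels do not say whether libraries of a group are separate mice, so p-values measure the spread between libraries. Alternatives were DESeq2 1.42.0, its size factors, library size alone, no filter (at least 1 count), a replicate block, loess correction for GC and length (span 0.3), each library left out, and, chosen after seeing the data, a choroid plexus covariate. Named were all 9 members, of each pathway list at most 2 called genes per direction, and the 5 genes most like Nts. The members and lists were chosen with earlier results of these data known. Python 3.11.15, pandas 2.3.3, scipy 1.17.1 and matplotlib 3.10.9 made tables and figures.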

Additional observations from a re-analysis of the deposited data

How the results depend on the processing

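With 2 or 3 libraries a group and as few as 21 counts, the spread between libraries and, for Crh, Cartpt and Nts, depth limit these values. Of the log2 fold changes of the 9 genes refitted without leaving out a library, 285 kept direction and side of the threshold and 22 reversed. Of those that kept direction, 4 gained and 4 lost a call. Among the reversed, Pdyn with training under the choroid plexus covariate also lost its call. With a library left out, which leaves a group of 2 with a lone library assumed to vary like the other groups, 331 kept both, 25 reversed, 1 gained and 12 lost a call. Unless stated, the cause of these moves was not tested. Library size alone moved 7 group means of level by more than 1 SD.

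Members called: with no low-count filter, 3 with training (Pdyn, Nts and Tac2), 2 in TAU VEH vs WT VEH (Nts and Penk) and 1 in TAU MOL vs TAU VEH (Nts). With GC and length correction 0 were called with training and 0 in TAU VEH vs WT VEH, and with library size alone 0 in the latter. With a library left out, 0 to 1 were called with training and 0 to 2 in TAU VEH vs WT VEH.

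Genes called among all tested, TAU basal vs WT basal (4): 41 with DESeq2, 125 without the filter, 9 with GC and length correction and 1 to 15 with a library left out (1 without WT basal replicate 3). Training (1413): 2686 without the filter, 767 with GC and length correction and 73 to 2798 with a library left out (73 without WT VEH replicate 1). TAU VEH vs WT VEH (2423): 444 with GC and length correction and 915 to 2944 with a library left out (915 without TAU VEH replicate 1). TAU MOL vs TAU VEH (0): 54 with DESeq2, 233 without the filter and 0 to 15 with a library left out. TAU MOL vs WT VEH (947): 1590 without the filter, 31 with GC and length correction and 2 to 1379 with a library left out (2 without either TAU MOL library, 4 without either WT VEH library). Library size alone gave 30.1% lower among called genes in that comparison instead of 89.1%, and 25.4% instead of 36.3% with training.

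Replicate numbers did not pair the libraries: same-numbered libraries correlated in their deviations from group means by -0.16 to 0.25. With the replicate block, 37 genes were called in TAU basal vs WT basal and 3000 with training, no call on a member changed, and 3 uncalled differences turned: Tac2 (0.13) and Cartpt (0.031) in TAU basal vs WT basal and Tac1 (0.019) in TAU MOL vs WT VEH.

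With the choroid plexus covariate, chosen after seeing the data, 2 genes were called in TAU basal vs WT basal, 0 with training, 0 in TAU VEH vs WT VEH and 2 in TAU MOL vs WT VEH, and 0 members in each. Reversed log2 fold changes were Nts -0.21, Penk 0.19, Pdyn 0.060, Adcyap1 -0.21 and Cartpt 0.18 in TAU basal vs WT basal. With training they were Nts -0.60, Penk -0.31, Pdyn 0.056, Tac1 -0.88, Tac2 0.87 and Cartpt 0.078. They were Pdyn -0.13 and Tac1 0.51 in TAU VEH vs WT VEH, Tac1 -0.068 in TAU MOL vs TAU VEH, and Tac1 0.44 and Tac2 -0.48 in TAU MOL vs WT VEH.

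Other reversals were all of uncalled differences. GC and length correction gave -0.046 for Adcyap1 in TAU VEH vs WT VEH. Library size alone gave -0.013 for Pdyn in TAU MOL vs TAU VEH and 0.11 for Tac1 in TAU MOL vs WT VEH. With a library left out, the basal differences ran from -0.033 to 1.74 for Nts, -0.33 to 0.15 for Penk, -0.46 to 0.10 for Pdyn, -0.97 to 0.093 for Tac2, -0.29 to 0.57 for Adcyap1 and -0.47 to 0.066 for Cartpt. Those with training ran from -0.15 to 0.22 for Penk, -0.018 to 0.67 for Tac1, -0.96 to 0.083 for Tac2 and -0.059 to 0.37 for Grp. In TAU VEH vs WT VEH they ran from -0.69 to 0.0085 for Tac1, -0.081 to 0.12 for Adcyap1 and -0.13 to 0.43 for Crh. In TAU MOL vs TAU VEH Pdyn ran from -0.10 to 0.15. In TAU MOL vs WT VEH they ran from -0.10 to 0.81 for Nts, -0.31 to 0.39 for Tac1, -0.12 to 0.20 for Tac2 and -0.013 to 0.55 for Cartpt.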
